A study of Mus musculus with 214 samples.

Results

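T lymphocytes and natural killer (NK) cells were followed in mouse liver through the transcripts of 10 genes: Cd3d, Cd3e, Cd3g, Cd8a, Lck, Nkg7, Gzma, Gzmb, Ccl5 and Ptprc. They were chosen by name as markers of these cells, with earlier results of these data known. All were listed among the 18647 genes measured in WT liver and the 19540 in Mgmt-/- liver. A gene was tested in a comparison only when its mean over the libraries of that comparison reached 2 normalized counts. Between 7 and 9 of the 10 genes passed in the 5 Mgmt-/- comparisons and between 4 and 9 in the 5 WT comparisons, and Cd3e never passed.

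The liver RNA came from C57BL6 mice of a pair of genotypes, RaDR+/+;GPT+/+ (called WT) and RaDR+/+;GPT+/+;Mgmt-/-, so both genotypes carried the RaDR recombination reporter and the GPT transgene, and only one lacked Mgmt, the enzyme that removes methyl groups from the O6 position of guanine. Pups were injected intraperitoneally with the methylating nitrosamine NDMA at 3.5 mg/kg on postnatal day 8 and 7 mg/kg on postnatal day 15, or with saline on the same days. From the second injection to collection of the livers, of both sexes, passed 1, 2 or 5 days, 10 weeks or 10 months, so the early livers came from pups and the late ones from adults. WT groups held 26, 8, 8, 8 and 13 NDMA libraries and 21, 8, 7, 8 and 10 saline libraries in that order of time, and Mgmt-/- groups held 12, 8, 8, 8 and 13 NDMA libraries and 12, 7, 6, 8 and 12 saline libraries. Each library was a 3′ digital gene expression library of a whole-liver sample, in which each transcript is counted near its 3′ end. The values are gene counts divided by a size factor per library, called normalized counts here, and the genotypes were normalized separately, so levels are compared within a genotype only. Depth ran from 150038 to 4791649 reads in WT and from 713584 to 7740710 reads in Mgmt-/- libraries for which whole reads could be recovered.

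A T cell recognises its target through the T cell receptor, whose signal is passed on by the CD3 chains that Cd3d, Cd3e and Cd3g encode. CD8 alpha (Cd8a) is part of the co-receptor of cytotoxic T cells and carries the kinase Lck to the receptor. Activated cytotoxic T cells and NK cells kill through granules that hold the proteases granzyme A and granzyme B (Gzma, Gzmb) and the granule membrane protein Nkg7, and they secrete the chemokine Ccl5. CD45 (Ptprc) is a phosphatase on the surface of all white blood cells, so it marks leukocytes in general and not T and NK cells alone. The liver is known for a large resident population of NK and innate-like T cells.

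The 3 granule genes Nkg7, Gzma and Gzmb were those called with a larger response in Mgmt-/- livers at 5 days. At that time genotype cannot be told apart from library batch. The Nkg7 call was lost when a pair of left-out libraries, described below, was included. The promoters of these 3 genes are shown, from 250 bases before to 50 bases after the RefSeq transcription start (build GRCm38.p6). Capitals mark 4 short motifs searched on both strands: TGTGGT, the core bound by RUNX factors, GGTGTGA, bound by T-box factors such as T-bet and Eomes, CAGGAAG, an ETS-type site, and GAAA, any 2 bases and GAAA again, the core of the interferon-stimulated response element.
Nkg7, chr7:43436888-43437187, plus strand: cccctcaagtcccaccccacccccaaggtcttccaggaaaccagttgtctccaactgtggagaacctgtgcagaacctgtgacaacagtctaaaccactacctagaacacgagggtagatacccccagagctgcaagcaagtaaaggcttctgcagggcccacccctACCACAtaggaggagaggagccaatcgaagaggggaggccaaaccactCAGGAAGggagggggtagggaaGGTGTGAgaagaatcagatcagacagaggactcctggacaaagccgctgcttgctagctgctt
Gzma, chr13:113100932-113101231, minus strand: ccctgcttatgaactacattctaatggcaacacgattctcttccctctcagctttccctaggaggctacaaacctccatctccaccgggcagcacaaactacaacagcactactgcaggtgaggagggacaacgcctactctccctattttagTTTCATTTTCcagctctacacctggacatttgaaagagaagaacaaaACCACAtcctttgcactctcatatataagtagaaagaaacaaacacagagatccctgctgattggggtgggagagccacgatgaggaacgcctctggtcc
Gzmb, chr14:56262285-56262584, minus strand: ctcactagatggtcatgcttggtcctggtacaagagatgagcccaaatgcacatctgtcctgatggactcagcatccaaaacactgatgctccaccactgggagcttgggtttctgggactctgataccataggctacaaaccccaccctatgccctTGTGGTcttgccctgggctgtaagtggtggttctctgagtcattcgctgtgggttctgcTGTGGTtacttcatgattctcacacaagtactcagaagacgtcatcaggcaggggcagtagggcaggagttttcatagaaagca
The Nkg7 window held 1 RUNX, 1 T-box and 1 ETS match, the Gzma window 1 RUNX and 1 response element match, and the Gzmb window 2 RUNX matches. The 9 members with a RefSeq promoter had 11 windows, of which 4 held a RUNX match, 6 an ETS match, 1 a T-box match and 1 a response element match. Among all 32851 windows of the same length these shares were 16.8%, 13.3%, 3.98% and 3.44%. Counted by member, 4 of the 9 had an ETS match, because Lck and Ptprc each had more than 1 window with such a match. The windows of Ptprc overlap and hold the same site. These are descriptions of letters, and no binding was measured. Ccl5 had no entry. The CD3 genes lie side by side on chromosome 9 of GRCm38: Cd3g on the minus strand (44969572 to 44980431), Cd3d on the plus strand (44981786 to 44987339) and Cd3e on the minus strand (44998740 to 45009627), with the Cd3g and Cd3d start sites 1355 bases apart and pointing away from each other.

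Several libraries stood apart before any comparison was made. A pair of Mgmt-/- saline libraries taken at 5 days, replicates D389011 and D389017, held the kidney transcript Kap at 6147 and 7562 normalized counts against at most 13.9 in the other 94 Mgmt-/- libraries. Their 10 T and NK cell genes summed to 16.2 and 22.3, below each of the other 6 saline livers of that age, and they were left out of the comparison. With them included all 9 tested genes were called higher at 5 days, beside 6.95% of all tested genes. In WT, 1 NDMA library each at 2 days, 5 days, 10 weeks and 10 months had fewer than 300000 reads, and 2 NDMA libraries at 1 day had sex-specific transcripts opposite to their labelled sex. As a check of the labels only, the Mgmt transcript ranged from 13.0 to 130 in WT and from 0 to 9.67 in Mgmt-/- libraries. These ranges did not overlap, although the genotypes were normalized separately and their levels are not on one scale. In the labelled tissue the hepatocyte transcripts Alb, Apoa1, Ttr, Serpina1c and Fgb were abundant in all comparisons. Of the defining T cell markers, Cd3e was at 0 in 51 of 94 Mgmt-/- and 75 of 117 WT libraries, with 80 and 69 reads in all. The T cell receptor complex was therefore followed through Cd3d and Cd3g. The constant-region genes of the receptor, Trac, Trbc1 and Trbc2, were on the receptor list read below and were tested in no comparison.

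The question of the main comparison was whether NDMA altered the amount of T and NK cell transcripts in livers that could or could not repair O6-methylguanine. In Mgmt-/- livers 5 days after the second injection, 9 of the 9 tested genes were higher in NDMA than in saline livers, where 10.8% of the 11411 genes tested were called higher. Of these 9, Cd8a reached the filter only through the NDMA group and had to differ. It is included in the counts and the median that follow. For each of the 9 genes the lowest NDMA liver lay above the highest saline liver, which held for 5.34% of all tested genes. The log2 fold changes ran from 1.96 to 4.03 with a median of 2.69, against a median of 0.04 over all tested genes. The granzymes moved most and the general leukocyte gene Ptprc least. In whole tissue, more cells of a type and more RNA per cell cannot be told apart.

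Granzyme A transcripts ranged over 5.11 to 14.4 normalized counts in saline livers (median 5.94, n = 6) and 73.0 to 265 in NDMA livers (median 119, n = 8). The groups did not overlap (log2 fold change 4.03 ± 0.26 (SE), limma adjusted p = 4.14e-11). Granzyme B ranged over 0 to 11.1 normalized counts in saline livers (median 2.77, n = 6) and 30.0 to 86.5 in NDMA livers (median 44.2, n = 8), again without overlap (log2 fold change 3.64 ± 0.40 (SE), limma adjusted p = 1.02e-06). Nkg7, the third granule gene, ranged over 5.40 to 17.4 normalized counts in saline livers (median 10.0, n = 6) and 64.5 to 120.2 in NDMA livers (median 77.0, n = 8). All 8 treated livers had more Nkg7 than any control (log2 fold change 2.86 ± 0.20 (SE), limma adjusted p = 2.25e-11). All 3 granule genes separated the groups, and the largest change was that of Gzma.

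The chemokine Ccl5 ranged over 22.1 to 58.3 normalized counts in saline livers (median 40.8, n = 6) and 178 to 349 in NDMA livers (median 285, n = 8). Its groups were far apart relative to their spread (log2 fold change 2.69 ± 0.17 (SE), limma adjusted p = 5.73e-12). Among the receptor genes, Cd3d ranged over 0.822 to 12.0 normalized counts in saline livers (median 9.16, n = 6) and 30.6 to 87.1 in NDMA livers (median 52.9, n = 8), with the lowest treated liver above the highest control (log2 fold change 2.98 ± 0.40 (SE), limma adjusted p = 2.77e-05). Cd3g, its neighbour on the chromosome and partner in the complex, ranged over 8.20 to 10.2 normalized counts in saline livers (median 8.50, n = 6) and 24.2 to 65.1 in NDMA livers (median 45.5, n = 8). The 6 control livers were within a narrow band and all 8 treated livers were above it (log2 fold change 2.22 ± 0.21 (SE), limma adjusted p = 2.99e-09).

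The co-receptor gene Cd8a was almost undetected in controls and present in every treated liver: it ranged over 0 to 0.471 normalized counts in saline livers (median 0, n = 6) and 2.85 to 12.9 in NDMA livers (median 5.22, n = 8). The 6 controls held 1 Cd8a read in all and the 8 treated livers 75 reads (log2 fold change 2.62 ± 0.39 (SE), limma adjusted p = 9.03e-06). Cd8a passed the filter only through the NDMA group, so it had to differ, and it adds nothing to the 8 other genes, which were all called higher and all without overlap. Lck, the kinase that works beside CD4 and CD8, ranged over 0 to 11.1 normalized counts in saline livers (median 6.88, n = 6) and 15.4 to 43.7 in NDMA livers (median 25.4, n = 8). One saline liver had no Lck read and the groups did not overlap (log2 fold change 2.19 ± 0.45 (SE), limma adjusted p = 0.00158). Ptprc ranged over 7.79 to 27.3 normalized counts in saline livers (median 18.3, n = 6) and 55.4 to 81.0 in NDMA livers (median 74.0, n = 8), also without overlap (log2 fold change 1.96 ± 0.19 (SE), limma adjusted p = 9.20e-09). Cd3e was at 0 in 5 of 6 saline and 2 of 8 NDMA livers, with 2 and 15 reads in all, and was not tested.

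**Figure D1:**
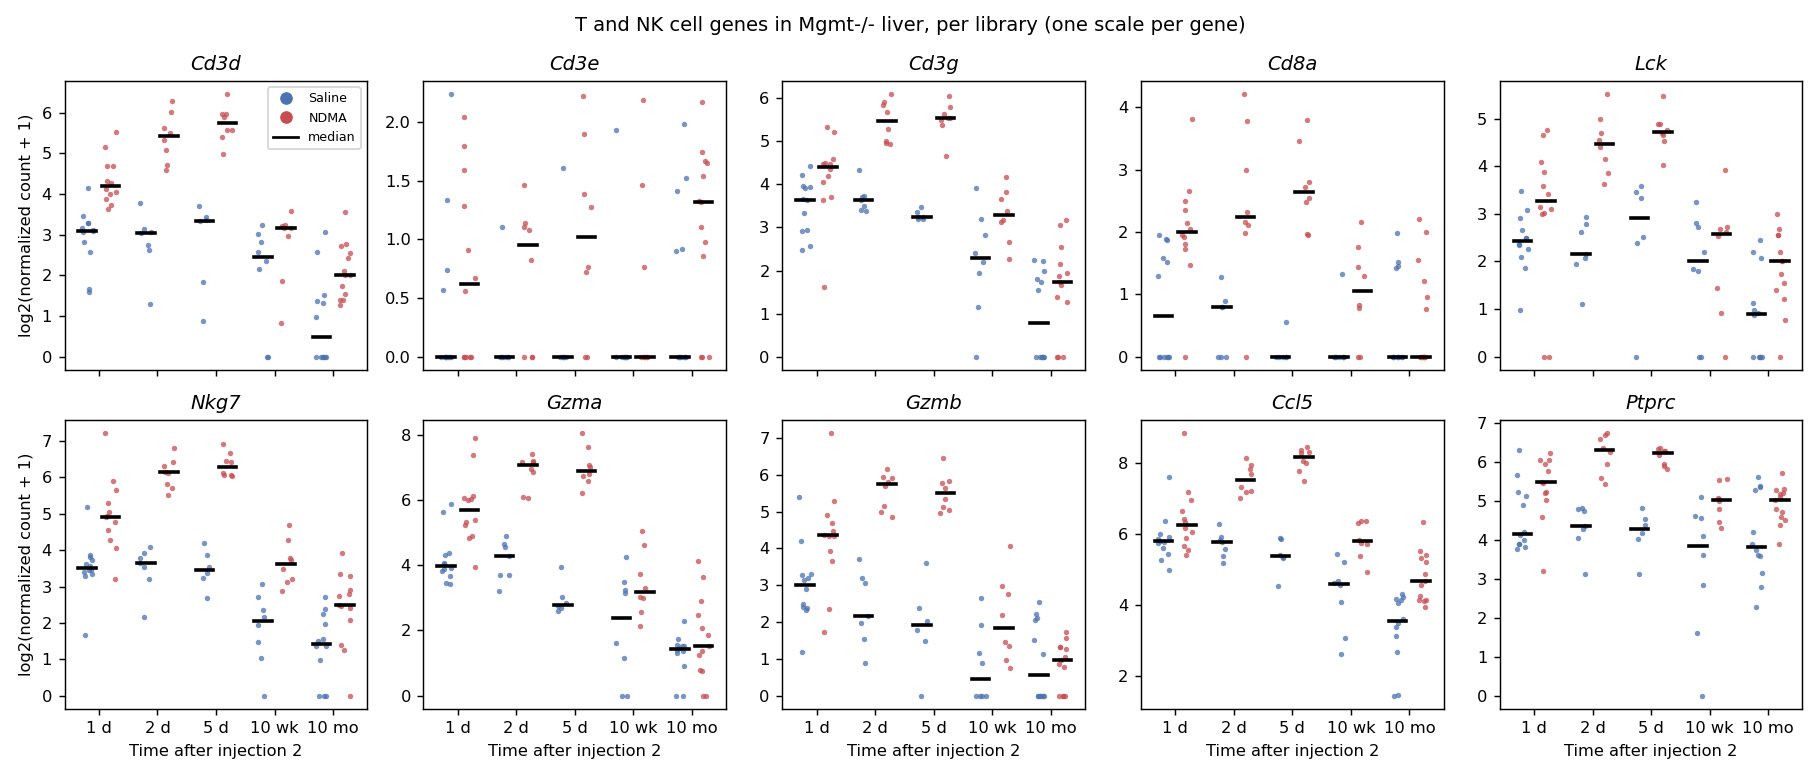
The 10 T and NK cell genes in Mgmt-/- liver: each point is one library, by time after the second injection (x axis) and log2(normalized count + 1) (y axis, one scale per gene), blue for saline, red for NDMA, with a black line at the median. At 2 and 5 days the treated livers lie above the controls for nearly every gene, for example Gzma at 5 days with a median of 119 against 5.94 normalized counts, and most genes are lower at 10 months than at the early times in both groups.

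The same genes were already higher 2 days after the second injection in Mgmt-/- livers. All 9 tested genes were called higher, beside 11.9% of the 11586 genes tested, and for 8 of the 9 every treated liver exceeded every control, beside 5.40% of all tested genes. Gzmb ranged over 0.859 to 12.1 normalized counts in saline livers (median 3.46, n = 7) and 28.0 to 70.5 in NDMA livers (median 52.6, n = 8) and had the largest change (log2 fold change 3.22 ± 0.34 (SE), limma adjusted p = 9.38e-08). Gzma ranged over 8.26 to 28.9 normalized counts in saline livers (median 18.5, n = 7) and 65.4 to 171 in NDMA livers (median 133, n = 8) (log2 fold change 2.70 ± 0.26 (SE), limma adjusted p = 5.37e-08). Nkg7 ranged over 3.46 to 16.1 normalized counts in saline livers (median 11.4, n = 7) and 44.8 to 111 in NDMA livers (median 69.4, n = 8) (log2 fold change 2.62 ± 0.24 (SE), limma adjusted p = 2.03e-09). For each of the granule genes the treated livers stood clear of the controls. Ccl5 ranged over 35.2 to 76.7 normalized counts in saline livers (median 54.0, n = 7) and 127 to 279 in NDMA livers (median 182, n = 8) (log2 fold change 1.83 ± 0.18 (SE), limma adjusted p = 6.65e-09). The log2 fold changes of Cd3d, Lck, Ptprc and Cd3g were 2.58 ± 0.31, 2.22 ± 0.30, 1.90 ± 0.24 and 1.79 ± 0.22 (SE). Cd8a, which overlapped, was again lifted over the filter by the NDMA group alone, with 3 of 7 controls and 1 of 8 treated livers at 0 (log2 fold change 1.87 ± 0.48 (SE), limma adjusted p = 0.00381). Leaving out any single library at 2 or 5 days left 9 genes called, beside at least 10.9% and 9.90% of all tested genes.

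One day after the second injection the picture in Mgmt-/- livers was mixed. Of 9 tested genes 4 were called higher, Gzma, Nkg7, Cd3d and Cd8a, beside 8.83% of the 12089 genes tested. No gene separated the groups, which 0.711% of all tested genes did. Gzma ranged over 9.77 to 57.6 normalized counts in saline livers (median 14.8, n = 12) and 14.4 to 241 in NDMA livers (median 52.1, n = 12), with 6 of 12 treated livers above the highest control (log2 fold change 1.55 ± 0.38 (SE), limma adjusted p = 0.00458). Cd3d ranged over 1.99 to 16.7 normalized counts in saline livers (median 7.58, n = 12) and 11.5 to 45.3 in NDMA livers (median 17.4, n = 12), also with 6 treated livers above the highest control (log2 fold change 1.40 ± 0.26 (SE), limma adjusted p = 6.71e-05). Nkg7 ranged over 2.17 to 35.3 normalized counts in saline livers (median 10.4, n = 12) and 8.23 to 148 in NDMA livers (median 29.4, n = 12) (log2 fold change 1.46 ± 0.33 (SE), limma adjusted p = 0.00128). The treated livers were higher as a group, and the ranges overlapped in all 3 genes. Cd8a had a saline mean below the filter (log2 fold change 1.19 ± 0.35 (SE), limma adjusted p = 0.0103). Gzmb (log2 fold change 1.25 ± 0.46 (SE), limma adjusted p = 0.0513) and Ptprc (log2 fold change 0.78 ± 0.29 (SE), limma adjusted p = 0.052) lay close to the threshold without passing it, and Ccl5 (log2 fold change 0.56 ± 0.33 (SE), limma adjusted p = 0.252) lay further from it. Cd3g (log2 fold change 0.68 ± 0.27 (SE), limma adjusted p = 0.0689) and Lck (log2 fold change 0.64 ± 0.41 (SE), limma adjusted p = 0.292) were not called either.

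These 1-day livers came from 2 library batches. In batch 191212Eng, with 8 treated and 8 control livers, all 9 tested genes were called higher, beside 9.08% of all tested genes, with log2 fold changes of 2.12 for Gzma and 2.03 for Nkg7. In batch 200803Eng, with 4 and 4, none of 8 was called, beside 2.31% of all tested genes, and the changes of Gzma and Nkg7 were 0.42 and 0.30; 0 of these 8 had an unadjusted p under 0.05 (limma), beside 16.9% of all tested genes. A control liver of the smaller batch, replicate D209090, had a summed level of 454 against 87.9 to 249 in the other 11 controls, and without it 8 of the 9 genes were called, beside 9.70% of all tested genes. A batch by treatment term was called for none of the 9 members (limma), beside 0.00827% of all tested genes with D209090 and 0.00829% without it. It had an unadjusted p under 0.05 for 5 of the 9, all with a smaller response in 200803Eng, beside 7.20% of all tested genes, and for 2 of the 9 without D209090, beside 6.99%. The treated liver with the highest sum, replicate D389094 at 1182, moved no call when left out. Both were singled out after their values were seen.

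At 10 weeks, when the mice were adult, 2 of 8 tested genes were called higher in Mgmt-/- livers, beside 7.59% of the 11728 genes tested. No gene of the 8 separated the groups, as 2.14% of all tested genes did. Nkg7 ranged over 0 to 7.38 normalized counts in saline livers (median 3.15, n = 8) and 6.28 to 24.8 in NDMA livers (median 11.3, n = 8), with 7 of 8 treated livers above the highest control (log2 fold change 1.81 ± 0.42 (SE), limma adjusted p = 0.00386). Ccl5 ranged over 5.22 to 42.0 normalized counts in saline livers (median 23.0, n = 8) and 29.2 to 81.9 in NDMA livers (median 54.3, n = 8), with 6 of 8 treated livers above the highest control (log2 fold change 1.55 ± 0.29 (SE), limma adjusted p = 5.63e-04). Ptprc had a change of similar size without passing the test, over 0 to 33.4 normalized counts in saline livers (median 13.6, n = 8) and 18.8 to 46.7 in NDMA livers (median 31.4, n = 8) (log2 fold change 1.67 ± 0.57 (SE), limma adjusted p = 0.0655). The granzymes were low in both groups, Gzma with medians of 4.94 and 8.02 and Gzmb with 0.433 and 2.66 normalized counts in saline and NDMA livers. When libraries were instead scaled to equal totals, Cd3g and Ptprc were called as well, which made 4 genes. That scaling raised the share of all tested genes called higher from 7.59% to 11.8% and their median log2 fold change from 0.07 to 0.26. Not called were also Cd3g (log2 fold change 1.08 ± 0.41 (SE), limma adjusted p = 0.0884), Cd3d (log2 fold change 0.73 ± 0.50 (SE), limma adjusted p = 0.408), Lck (log2 fold change 0.28 ± 0.56 (SE), limma adjusted p = 0.828), Gzma (log2 fold change 1.32 ± 0.56 (SE), limma adjusted p = 0.147) and Gzmb (log2 fold change 1.24 ± 0.52 (SE), limma adjusted p = 0.139), the last tested through its NDMA group. Cd8a was below the filter at 10 weeks and at 10 months.

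At 10 months 3 of 7 tested genes were called higher in Mgmt-/- livers, beside 4.90% of the 11838 genes tested, and 4 of the 7 had a saline mean below the filter. None separated the groups, as 0.110% of all tested genes did. Ccl5 ranged over 1.74 to 18.8 normalized counts in saline livers (median 10.7, n = 12) and 14.5 to 80.2 in NDMA livers (median 24.7, n = 13), and 8 of the 13 treated livers were above the highest control (log2 fold change 1.47 ± 0.32 (SE), limma adjusted p = 0.00238). Ptprc ranged over 3.89 to 48.0 normalized counts in saline livers (median 13.2, n = 12) and 13.9 to 51.7 in NDMA livers (median 31.5, n = 13), with only 1 treated liver above the highest control (log2 fold change 0.86 ± 0.28 (SE), limma adjusted p = 0.0464). In females alone the NDMA median of Ptprc was below its saline median, as given with the sexes below. Its sex by treatment term was not called (limma adjusted p = 0.0999). Cd3d, tested through its NDMA group, ranged over 0 to 7.39 normalized counts in saline livers (median 0.482, n = 12) and 1.41 to 10.7 in NDMA livers (median 3.03, n = 13) (log2 fold change 1.23 ± 0.36 (SE), limma adjusted p = 0.0263). Only the Ccl5 call held with edgeR, with a pseudocount of 5 and with total reads as a term, where 4.99%, 4.21% and 3.84% of all tested genes were called higher. These late values rest on few reads: a treated liver held a median of 23.0 reads of Ccl5 and 2.00 of Cd3d. Nkg7 (log2 fold change 1.07 ± 0.38 (SE), limma adjusted p = 0.075), Lck (log2 fold change 0.93 ± 0.37 (SE), limma adjusted p = 0.116), Cd3g (log2 fold change 0.64 ± 0.42 (SE), limma adjusted p = 0.377) and Gzma (log2 fold change 0.47 ± 0.39 (SE), limma adjusted p = 0.512) were not called. Gzmb was not tested at 10 months, at 0 in 6 of 12 saline and 4 of 13 NDMA livers.

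**Figure D2:**
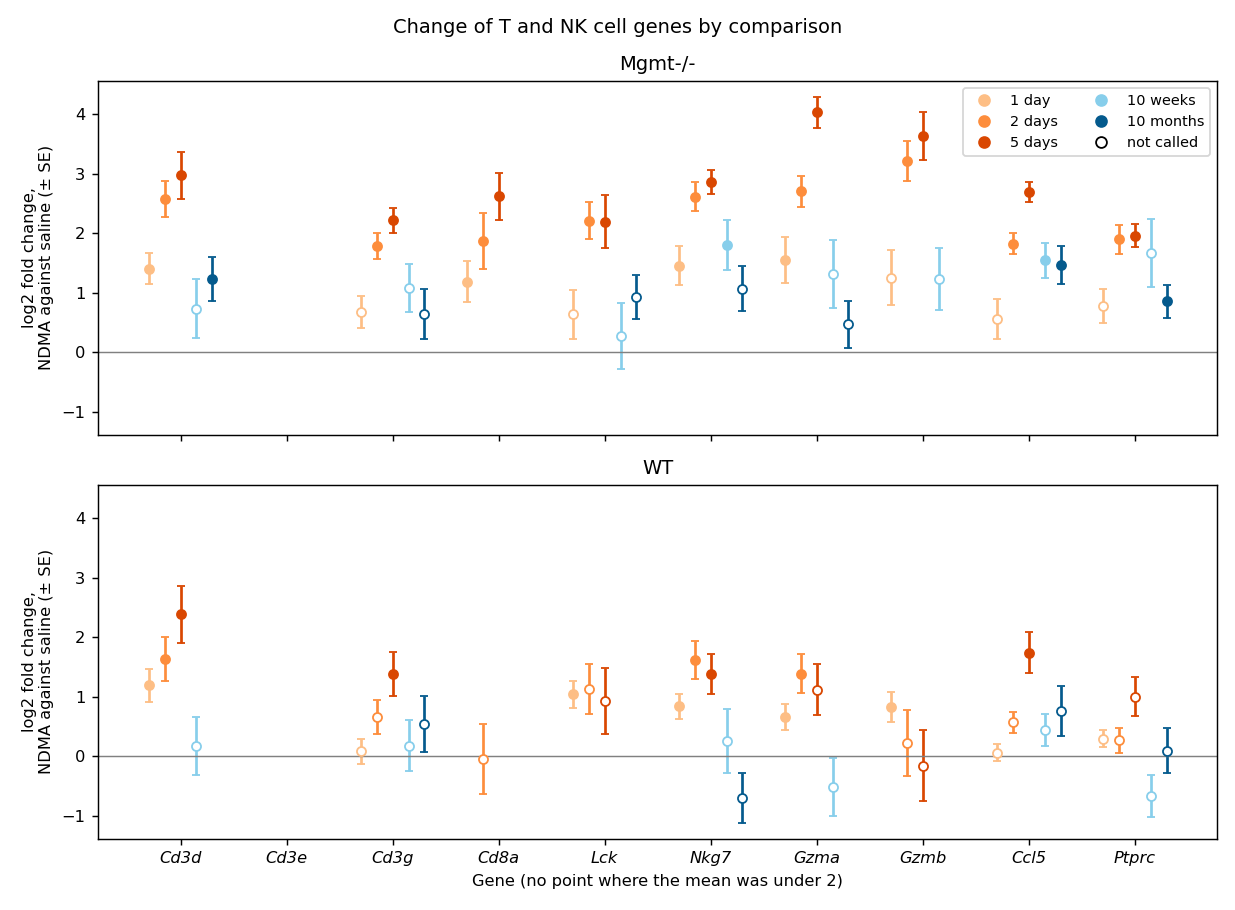
Log2 fold change of NDMA against saline liver with its SE (y axis) for each gene (x axis) at each time (colour), Mgmt-/- above and WT below; filled points passed the test and no point is drawn where the gene was not tested. In Mgmt-/- livers the filled points reach 4.03 for Gzma at 5 days, and in WT livers 2.39 for Cd3d at 5 days.

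In WT livers some of these genes were called higher at 1, 2 and 5 days and none at 10 weeks or 10 months. One day after the second injection 5 of 8 tested genes were higher, Cd3d, Lck, Nkg7, Gzmb and Gzma, beside 4.99% of the 11234 genes tested. Cd3d ranged over 0 to 27.1 normalized counts in saline livers (median 6.42, n = 21) and 2.72 to 31.4 in NDMA livers (median 15.6, n = 26) (log2 fold change 1.19 ± 0.28 (SE), limma adjusted p = 0.00143). Lck ranged over 0 to 7.49 normalized counts in saline livers (median 3.40, n = 21) and 0.911 to 14.8 in NDMA livers (median 6.74, n = 26), with 10 of 26 treated livers above the highest control (log2 fold change 1.04 ± 0.23 (SE), limma adjusted p = 4.77e-04). Nkg7 ranged over 3.66 to 40.6 normalized counts in saline livers (median 12.1, n = 21) and 3.49 to 91.8 in NDMA livers (median 22.7, n = 26) (log2 fold change 0.84 ± 0.21 (SE), limma adjusted p = 0.00228). All 3 had overlapping groups, and 0% of all tested genes had every treated liver above every control. The granzymes changed less, Gzmb by 0.83 ± 0.26 and Gzma by 0.67 ± 0.22 on the log2 scale (SE), and Ccl5 (log2 fold change 0.06 ± 0.14 (SE), limma adjusted p = 0.819) and Cd3g (log2 fold change 0.08 ± 0.21 (SE), limma adjusted p = 0.844) did not pass. Ptprc was not called either, over 9.32 to 29.1 normalized counts in saline livers (median 19.0) and 4.07 to 48.7 in NDMA livers (median 22.4). Of the 26 treated livers 8 were above its highest control. By batch, 5 genes were called in 191212Eng, 3 in 210901Eng and none in 200803Eng, where 5.15%, 5.54% and 0% of all tested genes were called. In 200803Eng, with 6 treated and 4 control livers, Gzma and Nkg7 pointed the other way, at -0.25 and -0.53, and 0 of 8 genes had an unadjusted p under 0.05 (limma), beside 3.48% of all tested genes. With a pseudocount of 5 the calls of Cd3d and Nkg7 were left, beside 2.95% of all tested genes.

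At 2 days 3 of 9 tested genes were higher in WT livers, Cd3d, Nkg7 and Gzma, beside 2.54% of the 10926 genes tested. Cd3d ranged over 0.907 to 15.5 normalized counts in saline livers (median 5.54, n = 8) and 10.5 to 30.9 in NDMA livers (median 21.2, n = 8), with 6 of 8 treated livers above the highest control (log2 fold change 1.64 ± 0.37 (SE), limma adjusted p = 0.00904). The lowest treated value, 10.5, was 1 read in the shallowest library. Nkg7 ranged over 7.59 to 34.8 normalized counts in saline livers (median 9.48, n = 8) and 22.7 to 73.6 in NDMA livers (median 36.6, n = 8) (log2 fold change 1.62 ± 0.31 (SE), limma adjusted p = 0.00263). Gzma ranged over 6.50 to 61.8 normalized counts in saline livers (median 16.0, n = 8) and 18.9 to 116 in NDMA livers (median 37.9, n = 8), where the highest control, replicate D215004, stood far from the other controls (log2 fold change 1.39 ± 0.33 (SE), limma adjusted p = 0.0127). The groups overlapped in all 3, and only 0.293% of all tested genes had every treated liver above every control. Gzmb, among the most changed genes in Mgmt-/- livers of this age, had medians of 9.52 and 14.8 normalized counts in saline and NDMA livers here (log2 fold change 0.23 ± 0.56 (SE), limma adjusted p = 0.881). Ccl5 (log2 fold change 0.57 ± 0.17 (SE), limma adjusted p = 0.0537), Cd3g (log2 fold change 0.66 ± 0.29 (SE), limma adjusted p = 0.206), Lck (log2 fold change 1.13 ± 0.42 (SE), limma adjusted p = 0.12), Ptprc (log2 fold change 0.27 ± 0.21 (SE), limma adjusted p = 0.548) and Cd8a (log2 fold change -0.04 ± 0.59 (SE), limma adjusted p = 0.982) were not called, and Cd8a was below the filter at every other time in WT livers.

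At 5 days 4 of 8 tested genes were higher in WT livers, Cd3d, Ccl5, Cd3g and Nkg7, beside 1.70% of the 10986 genes tested. Cd3d ranged over 0 to 11.7 normalized counts in saline livers (median 3.12, n = 7) and 8.20 to 36.7 in NDMA livers (median 22.9, n = 8) (log2 fold change 2.39 ± 0.48 (SE), limma adjusted p = 0.00726). Its lowest treated value, 8.20, was 1 read. Ccl5 ranged over 12.5 to 85.5 normalized counts in saline livers (median 35.9, n = 7) and 45.1 to 142 in NDMA livers (median 124, n = 8) (log2 fold change 1.74 ± 0.34 (SE), limma adjusted p = 0.0086). In both, 7 of the 8 treated livers were above the highest control. Gzma (log2 fold change 1.12 ± 0.43 (SE), limma adjusted p = 0.175) and Gzmb (log2 fold change -0.16 ± 0.59 (SE), limma adjusted p = 0.929) were not called, and Gzmb was at 0 in 2 of 8 treated livers. Ptprc (log2 fold change 1.00 ± 0.33 (SE), limma adjusted p = 0.11) and Lck (log2 fold change 0.93 ± 0.56 (SE), limma adjusted p = 0.446) were not called. The Cd3g call was lost without any 1 of 12 of the 15 libraries and the Nkg7 call without any 1 of 9, whereas no single library carried the calls of Cd3d and Ccl5. The share of all tested genes called higher moved as well, from 0.719% without control D202009 to 4.52% without the shallow NDMA library D215014, and at 2 days it was 4.41% without the shallow NDMA library D215006. Treated livers had fewer reads (median 950371 against 1506100), and with total reads as a term no member was called although 5 of 8 had an unadjusted p under 0.05, beside 15.6% of all tested genes, Cd3d at 2.55 (limma adjusted p = 0.0629) and Ccl5 at 1.50 (limma adjusted p = 0.141). At 2 and 5 days each WT batch held one sex: 3 and 4 genes were called in the male batch 200710Eng, beside 4.27% and 6.25% of all tested genes, and none in the female batch 200724Eng, where 0% of all tested genes were called but 5 of 9 members at 2 days and 4 of 8 at 5 days had an unadjusted p under 0.05 (limma), beside 9.76% and 5.17% of all tested genes. The sexes of those livers therefore cannot be told apart from their batches. In the female batch at 5 days the log2 fold changes ran from -0.37 for Gzmb to 1.96 for Cd3d, and the smallest p was that of Ccl5 (1.90, limma adjusted p = 0.837).

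At 10 weeks none of 6 tested genes and at 10 months none of 4 was called in WT livers (limma), beside 0.0196% and 0% of all tested genes called higher. None of the 6 and none of the 4 had an unadjusted p under 0.05, beside 4.50% and 7.90% of all tested genes, and neither edgeR nor DESeq2 called a member, where they called 0% and at most 0.0196% of all tested genes higher. Ccl5 ranged over 11.3 to 28.5 normalized counts in saline livers (median 16.9, n = 8) and 11.3 to 40.2 in NDMA livers (median 27.3, n = 8) at 10 weeks (log2 fold change 0.44 ± 0.27 (SE), limma adjusted p = 0.925). At 10 months it ranged over 0 to 27.3 normalized counts in saline livers (median 7.94, n = 10) and 4.31 to 38.2 in NDMA livers (median 10.1, n = 13) (log2 fold change 0.77 ± 0.42 (SE), limma adjusted p = 0.652). Over the tested members the log2 fold changes ran from -0.67 to 0.44 at 10 weeks and from -0.70 to 0.77 at 10 months, with Ccl5 the highest at both. The groups overlapped throughout at both ages, at which 0% of all tested genes had every treated liver above every control. No member was called lower in NDMA livers at any time in either genotype, whereas 4.02%, 2.29%, 1.05%, 0% and 0% of all tested genes were called lower in WT and 7.97%, 6.72%, 5.85%, 3.36% and 2.69% in Mgmt-/- livers from 1 day to 10 months.

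**Figure D3:**
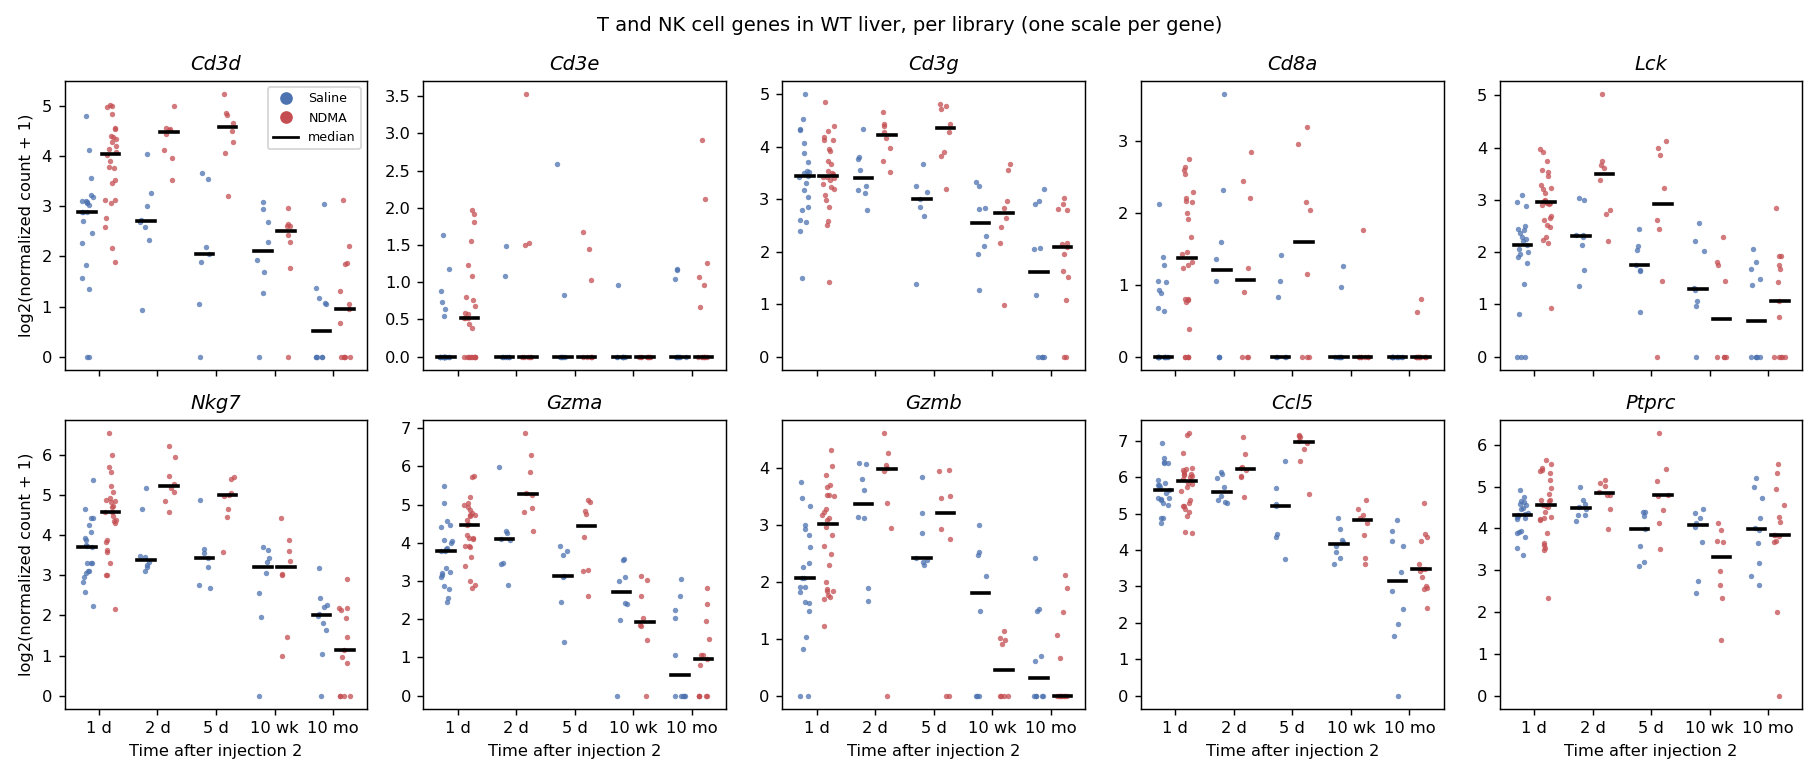
The 10 T and NK cell genes in WT liver: each point is one library, by time after the second injection (x axis) and log2(normalized count + 1) (y axis, one scale per gene), blue for saline, red for NDMA, with a black line at the median. At 5 days Cd3d has medians of 22.9 in NDMA and 3.12 in saline livers and Ccl5 of 124 and 35.9 normalized counts, and the groups overlap for every gene at every time. Of all tested genes 0%, 0.293%, 0.173%, 0% and 0% had every NDMA liver above every saline liver, from 1 day to 10 months.

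Whether the response to NDMA differed between the genotypes was tested as a genotype by treatment term on whole reads (edgeR quasi-likelihood, p-values adjusted over all genes). Libraries without recovered reads were left out, which were 3 of the 8 WT saline livers at 2 days and 1 of the 12 Mgmt-/- NDMA livers at 1 day. At 1 day none of 9 members was called, beside 0% of 12277 genes with a larger response in Mgmt-/- livers, and 0 of the 9 had an unadjusted p under 0.05, beside 8.87% of all tested genes. At 2 days 4 of 9 had a larger response in Mgmt-/- livers, beside 1.93% of 11673 genes: Gzmb by 1.89 on the log2 scale (edgeR adjusted p = 0.0486), Ptprc by 1.67 (edgeR adjusted p = 0.00245), Cd3g by 1.33 (edgeR adjusted p = 0.0486) and Ccl5 by 1.18 (edgeR adjusted p = 0.00874). At 5 days the 3 granule genes differed, beside 0.989% of 11522 genes: Gzmb by 2.94 (edgeR adjusted p = 0.00222), Gzma by 2.89 (edgeR adjusted p = 0.00303) and Nkg7 by 1.50 (edgeR adjusted p = 0.0290). Cd3d, called in both genotypes at 5 days, differed by 0.36 between them (edgeR adjusted p = 0.867). The Nkg7 difference was not called when the pair of kidney-rich libraries was included, whereas those of Gzma and Gzmb were, beside 0.457% of all tested genes. At 10 weeks only Ptprc differed, by 1.59 (edgeR adjusted p = 0.0450), beside 2.80% of 11138 genes, and not in the fit without a batch term, which called 2.55%. At 10 months none did, beside 0.560% of 11431 genes, and 2 of 5, Ccl5 and Nkg7, had an unadjusted p under 0.05, beside 13.6% of all tested genes. At 2 days, 5 days and 10 weeks the genotypes shared no library batch, and an effect of genotype there cannot be told apart from one of batch. Counted in either direction, the term was called for 0.00815%, 2.87%, 1.60%, 4.76% and 1.15% of all tested genes at the 5 times.

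The 10 genes were also summed in each library, as a description with no test. The NDMA sum of Mgmt-/- livers ranged from 98.7 to 1182 at 1 day (median 279.9), from 374 to 908 at 2 days (median 625), from 557 to 1065 at 5 days (median 731), from 101 to 190.4 at 10 weeks (median 138) and from 37.5 to 163 at 10 months (median 78.9). The saline sum had medians of 128, 143, 107, 53.2 and 36.4. The treated and control ranges did not overlap at 2 days, 5 days or 10 weeks. At 10 weeks, where each single gene overlapped, the highest saline sum was 96.7 and the lowest NDMA sum 101. Without Ptprc and Ccl5 the sums at 10 weeks overlapped. The highest saline sum was then 37.8 and the lowest NDMA sum 26.9, and 5 of 8 treated livers were above the highest control. The ratio of the medians was largest at 5 days, 6.82, and 2.17 at 10 months. In WT livers this ratio was 1.51 at 1 day, 1.93 at 2 days, 3.52 at 5 days, 1.06 at 10 weeks and 1.22 at 10 months, and the ranges overlapped at each time. Ccl5 made up 36.9% of the summed counts in Mgmt-/- NDMA livers at 5 days and 40.4% in their controls. Without Ptprc and Ccl5 the ratio of medians at 5 days was 8.19 in Mgmt-/- and 3.54 in WT livers.

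**Figure D4:**
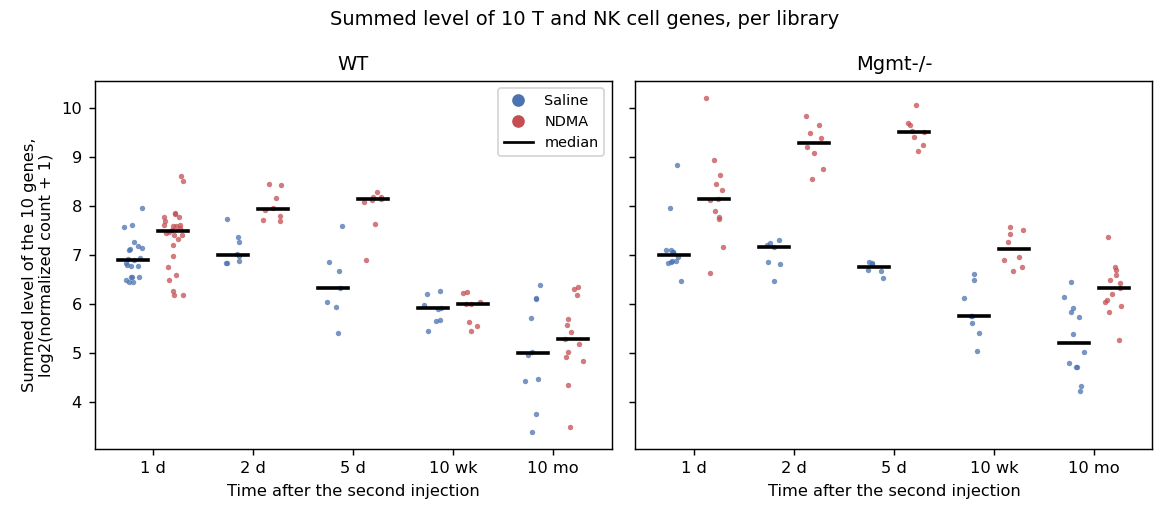
Summed level of the 10 T and NK cell genes per library, log2(normalized count + 1) (y axis), by time after the second injection (x axis) in WT (left) and Mgmt-/- (right) livers, blue for saline, red for NDMA, with a black line at the median. In Mgmt-/- livers the groups are apart at 2 days, 5 days and 10 weeks, with medians of 731 and 107 at 5 days, and the saline median is lower at 10 months than at 1, 2 or 5 days in both genotypes.

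The saline livers gave the background against age. Compared within library batches, 7 of 8 tested genes were lower at 10 months than at 2 days in WT saline livers, beside 21.9% of 11163 genes, and 7 of 8 were lower at 10 months than at 1 day in Mgmt-/- saline livers, beside 21.4% of 11874 genes. In the 10-month livers Cd3d, Gzmb and Lck in WT, and these with Cd3g and Gzma in Mgmt-/- mice, had a mean under the filter and were tested through the young group. Of the other members 4 of 5 in WT and 2 of 3 in Mgmt-/- livers were called lower. Gzma fell by 2.92 ± 0.42 (SE) on the log2 scale in WT livers (limma adjusted p = 2.29e-06). It fell by 3.34 ± 0.48 in Mgmt-/- livers (limma adjusted p = 1.40e-06). Ccl5 fell by 2.63 and 2.94 and Nkg7 by 1.75 and 2.72 in WT and Mgmt-/- livers. No member was called higher with age, as 34.7% of all tested genes in WT and 25.2% in Mgmt-/- livers were. Ptprc was the gene not called in either genotype, at -0.42 and -0.47. These tests set 7 livers against 8 in WT and 12 against 4 in Mgmt-/- mice. The 4 include the high control D209090. Without it 6 of 8 genes were called lower, beside 20.4% of all tested genes, Gzmb was not (-1.29, limma adjusted p = 0.114), and Ptprc was at 0.31.

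The other T and NK cell genes were read from 5 lists of 70 genes in all: receptor and signalling, costimulation and homing, NK and cytotoxic, inhibition, and chemokines that attract these cells. These lists, too, were chosen with earlier results of these data known. Without Mgmt, 19 of 39 tested were higher at 1 day, 33 of 44 at 2 days, 40 of 51 at 5 days, 10 of 28 at 10 weeks and 7 of 26 at 10 months, beside 8.83%, 11.9%, 10.8%, 7.59% and 4.90% of all tested genes. In WT livers 12 of 31, 7 of 38, 3 of 36, 0 of 20 and 0 of 21 were higher, beside 4.99%, 2.54%, 1.70%, 0.0196% and 0%. Part of these genes reached the filter only through the NDMA group. Among those whose saline mean reached it, 13 of 31, 19 of 27, 21 of 28, 9 of 23 and 7 of 22 were higher without Mgmt and 9 of 26, 7 of 33, 3 of 29, 0 of 20 and 0 of 21 in WT livers. Called lower were Tcf7 at 1 day in WT livers (-0.64), and in Mgmt-/- livers S1pr1 (-0.64), Il18 (-0.85) and Tox (-0.92) at 1 day, Zap70 (-1.84) at 2 days and Tox (-0.91) at 10 months. Of the inhibition list, Pdcd1 (PD-1) was called at 2 and 5 days (1.80 and 1.59) and Tigit at 5 days (2.09) in Mgmt-/- livers. Both were tested through the NDMA group and had to differ, with saline means of 0.105 and 0.394 for Pdcd1 and 0 for Tigit. The genes Lag3, Havcr2, Ctla4, Foxp3 and Il10 were below the filter at every time.

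The receptor list held the partners of the members. Cd8b1, the other CD8 chain, changed by 1.72, 3.32 and 2.75 on the log2 scale at 1, 2 and 5 days in Mgmt-/- livers, all called. Cd2, an adhesion receptor of T and NK cells, was at 1.74, 2.27 and 3.32, and Cd247, the zeta chain of the receptor, at 1.36, 1.77 and 2.64, all called. Of these, Cd247 at all 3 times, Cd8b1 at 2 and 5 days and Cd2 at 1 and 5 days were tested through the NDMA group. Cd4, which marks helper T cells, was tested at 2 and 5 days and not called, at 0.84 and 0.25. Fyb, an adaptor of T cell and myeloid signalling, was called at 2 days, 5 days, 10 weeks and 10 months, between 0.94 and 1.06. Themis, a T cell signalling gene, was called at 5 days (1.89) and 10 weeks (1.95), both through the NDMA group. Zap70, the kinase that binds the CD3 and zeta chains, was the gene of the list called lower in Mgmt-/- livers, at 2 days, and was the most abundant of the list in treated livers at 10 weeks and 10 months. The genes called lower, and Cd2, Cd8b1, Cd247, Cd4, Ncr1, Prf1, Ifng, Cxcr3, Pdcd1, Tigit and Il15, were singled out after their values were seen.

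Among NK and cytotoxic genes in Mgmt-/- livers, 10 of 10 tested were higher at 2 days and 12 of 12 at 5 days, of 18 listed. The shares of all tested genes called higher were 11.9% and 10.8%. Of the NK and cytotoxic genes, 8 of the 10 and 8 of the 12 had a saline mean under the filter. They were tested through the NDMA group and had to differ. With a saline mean at or above the filter were 2 genes at 2 days and 4 at 5 days, each called higher. Xcl1, a chemokine of activated T and NK cells, was called at 1 day, 2 days, 5 days and 10 weeks (2.25, 2.66, 3.30 and 1.49), as was Ccl4 (2.53, 3.35, 3.45 and 1.60), with a saline mean under the filter for Xcl1 at 5 days and Ccl4 at 2 days. The NK receptor Ncr1 was called at 1, 2 and 5 days (0.89, 1.41 and 2.13) and perforin (Prf1), the pore former of the granules, at 5 days (2.11), each time through the NDMA group. Interferon gamma (Ifng) passed the filter nowhere, at 0 in 67 of 94 Mgmt-/- libraries. In WT livers Xcl1 was called at 1, 2 and 5 days (0.93, 1.69 and 1.65).

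At 1 and 2 days the 3 largest changes on the 5 lists were those of ligands that attract these cells and monocytes. Cxcl9, a ligand of the T and NK cell receptor Cxcr3, was in Mgmt-/- livers at 3.73, 4.46 and 3.95 at 1, 2 and 5 days and at 1.08 at 10 months, all called. Cxcl10, another ligand of Cxcr3, was called at all 5 times (3.45, 4.40, 3.64, 2.06 and 1.22), and so was Ccl2, which mainly attracts monocytes (3.87, 4.44, 3.30, 3.42 and 1.53). Cxcl16, the ligand of Cxcr6, was called at 1 day, 2 days, 5 days and 10 weeks, between 0.63 and 1.59. The receptor Cxcr3 itself was called at 2 and 5 days (1.76 and 1.95). In WT livers Cxcl9 was called at 1, 2 and 5 days (2.43, 3.10 and 2.22) and Cxcl10 at 1 and 2 days (2.75 and 2.51). The cytokine Il15, which sustains NK cells, was called in no comparison, between -0.43 and 0.05. Of the homing and costimulation genes, Cd44, Il2rg and Selplg were each called higher at 4 of the 5 times in Mgmt-/- livers.

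Markers of other cell types moved with the T and NK cell genes, and their part in the result was not tested. From 1 day to 10 months 8.83%, 11.9%, 10.8%, 7.59% and 4.90% of all tested genes were higher and 7.97%, 6.72%, 5.85%, 3.36% and 2.69% lower in Mgmt-/- livers. General leukocyte genes beside Ptprc were higher for 4, 8, 8, 6 and 6 of 8 tested in Mgmt-/- livers at the 5 times, their summed median going from 1896 to 6340.3 at 5 days, with Tmsb4x the most abundant. At 5 days 1 of the 8, Cytip, was tested through the NDMA group. Of 10 macrophage and Kupffer cell genes 7 were higher at 2 days and 6 at 5 days, the summed median going from 1159 to 2524 at 5 days, and Lyz2 was the most abundant. At 1 day 3 of the 10 were higher, Ccr2 (1.77), Marco (1.19) and Cd68 (0.97), and 3 lower, Clec4f (-1.23), Csf1r (-0.97) and Vsig4 (-0.87). Marco was called higher at 4 of the 5 times. Of 8 neutrophil genes 7 were tested at 1, 2 and 5 days and 5, 5 and 6 of them were lower, the summed median going from 322 to 75.8 at 5 days, with S100a8 the most abundant. None of the 3 tested B and plasma cell genes was called at 2 or 5 days, with summed medians of 23.3 in saline and 22.8 in NDMA livers at 5 days and Cd79b the most abundant. At 10 weeks 1 of 4 tested, Jchain, was higher, and Cd79b was called lower at 1 of the 5 times. Dendritic cell genes were called for 2 of 5 tested at 2 days and 1 of 5, Clec9a, at 5 days, all 3 calls through the NDMA group. Of 4 thymocyte genes none was tested at 1, 2 or 5 days, and the defining genes Rag1 and Ptcra held 17 and 3 reads over all 94 Mgmt-/- libraries. Of 5 hepatocyte genes 3 were lower at 1 and 2 days and 1, Serpina1c (-0.73), at 5 days, where their sums had medians of 343817 in saline and 257072 in NDMA livers, with Alb the most abundant. Of 5 endothelial genes, all tested, 3 were lower at 1 day, Stab2 (-1.43), Kdr (-0.63) and Clec4g, whose change lay between these. Lyve1 was higher at all 5 times, between 0.72 and 1.46, and Pecam1 at 2 days (0.91), while Stab2 was also lower at 2 and 5 days and Clec4g at 5 days. Clec4g was the most abundant, and the summed median went from 477 to 380 at 5 days. In WT livers at 1, 2 and 5 days general leukocyte genes were higher for 3, 2 and 4 of 8 tested, with 1 call at 1 day through the NDMA group. Macrophage and Kupffer cell genes were higher for 5, 2 and 2 of 10, beside 4.99%, 2.54% and 1.70% of all tested genes. Clec4f, Vsig4 and Csf1r were each called lower at 1 time in WT livers. No gene of these 2 lists was called higher in WT livers at 10 weeks or 10 months.

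**Figure D5:**
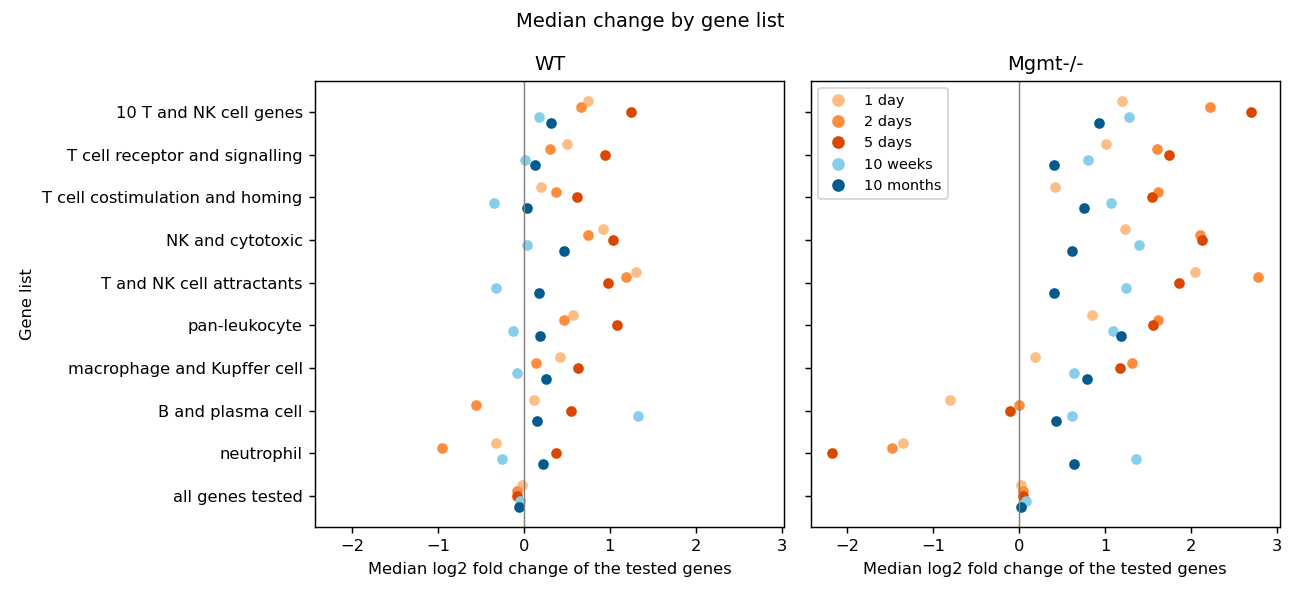
Median log2 fold change of the tested genes of each list (x axis) at each time (colour) in WT (left) and Mgmt-/- (right) livers, beside all genes tested. In Mgmt-/- livers at 5 days the 10 T and NK cell genes (9 tested) are at 2.69, general leukocyte genes at 1.56, macrophage genes at 1.18, neutrophil genes at -2.18 and all tested genes at 0.04. Medians rest on tested genes only, which for B and plasma cells at 5 days in Mgmt-/- livers are 3. There 1 of the 9 members, 9 of 14 receptor, 3 of 15 costimulation, 8 of 12 NK and cytotoxic, 1 of 7 attractant and 1 of 8 general leukocyte genes were tested through the NDMA group and had to differ. Of the macrophage, neutrophil and B cell genes 0 were, so the list medians are not on an equal footing.

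Within groups the members went together loosely. Over 94 Mgmt-/- libraries, after the mean of each treatment and time was subtracted, the 36 pairs of 9 members had correlations of log2 level between 0.10 and 0.59, the highest for Ccl5 with Cd3g and the lowest for Ptprc with Gzma. These libraries share size factors and low counts, and the values are a description. The genes outside the members that followed their mean most closely were Lyz2 (r = 0.760), Ly6c2 (0.740), Il18bp (0.740), Cd53 (0.731), Serpina3g (0.711), Aif1 (0.700), H2-DMa (0.700), Gbp2b (0.690), Ctss (0.690) and Slfn2 (0.664), out of 10086 genes. Lyz2 and Aif1 are macrophage genes and Cd53 a general leukocyte gene, and none of the 10 was on a T or NK cell list.

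The sex by treatment term was tested in WT livers at 1 day and in Mgmt-/- livers at all 5 times (limma), and no member was called in any, beside 0.279% of all tested genes at 10 months in Mgmt-/- livers and 0.0938% at 10 weeks. At 10 months in Mgmt-/- livers the term was positive, a larger response in males, for all 7 tested members. Of these 4 had an unadjusted p under 0.05, beside 17.9% of all tested genes. They were Ptprc (1.57), Cd3g (1.86), Nkg7 (1.71) and Ccl5 (1.32). In the other 5 comparisons 3 of 43 tests had one under 0.05, beside 1.96% to 6.82% of all tested genes. The smallest p was that of Ptprc (limma adjusted p = 0.0999). Its saline medians at 10 months were 38.0 in 7 females and 7.94 in 5 males, and the NDMA medians 31.5 in 7 females and 30.6 in 6 males.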

How the data were processed

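RNA of 214 labelled liver samples had been sequenced as 3′ digital gene expression with molecular identifiers, and 213 had values (117 WT, 96 Mgmt-/-). The authors aligned reads with STAR to GRCm38 (mm10), counted them per gene with ESAT and deposited the signal used here, gene counts divided by DESeq2 size factors, one table per genotype. Since each value is a whole multiple of what 1 read is worth, reads were recovered in 209 columns (100% of nonzero values whole within 0.02), and 4 columns did not yield them. Reads ranged from 150038 to 4791649 (median 1710016) in WT and from 713584 to 7740710 (median 2347670) in Mgmt-/- libraries, and low counts carry counting error.

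NDMA was compared with saline within each genotype and time by limma 3.58.1 (R 4.3.3, trend and robust) on log2(value + 1), with sex and library batch as covariates where they could be fitted, for every gene whose mean reached 2. Genes were called where the p-value, adjusted over all of them by Benjamini-Hochberg, was under 0.05 and the log2 fold change passed 0.58 in size, and fold changes on this scale understate low genes. The genotype by treatment term was fitted with edgeR 4.0.16 quasi-likelihood and TMM on recovered reads; edgeR and DESeq2 1.42.0 on those reads were alternatives, beside other pseudocounts, filters, scalings, covariates, single batches and left-out libraries. The study counts every mouse as 1 replicate. The members and lists were chosen with earlier results of these data known. Named were all 10 members; from the 5 T and NK cell lists, genes called in 1 direction at 4 or more of the 5 Mgmt-/- times and the 3 most changed called genes of each comparison; from other lists the most abundant gene and called genes; and the 10 genes most alike. On simulated data for the WT 1-day comparison (11133 genes) limma recovered 88.9% of genes changed by 1 log2 unit and 100% of those changed by 2; for Mgmt-/- at 5 days (11254 genes) it recovered 25% and 92%.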

Additional observations from a re-analysis of the deposited data

Results flagged for a closer look

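Of 115 gene and group combinations with 4 to 10 samples, 11 had a highest library far from the others; the nominal rate by chance is about 1 in 20 for normally distributed values and was not measured for counts this low. In WT livers these were Cd8a at 11.6 and Gzma at 61.8 normalized counts in the same saline library at 2 days (replicate D215004), Lck at 31.6 in an NDMA library at 2 days (D215006, the shallowest library) and Nkg7 at 28.5 in a saline library at 5 days (D215012). In Mgmt-/- saline livers they were Cd3g at 19.2 at 2 days (D389047), Cd8a at 0.471 at 5 days, a single read (D389036), and Gzma at 14.4 at 5 days (D389024). In Mgmt-/- NDMA livers they were Lck at 43.7 and Gzmb at 86.5 in one library at 5 days (D389054), Lck at 14.2 at 10 weeks (D209032) and Gzmb at 15.8 at 10 weeks (D209005).

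The response to NDMA differed between the genotypes by the edgeR genotype by treatment term, larger in Mgmt-/- livers, for Ccl5 (1.18), Cd3g (1.33), Gzmb (1.89) and Ptprc (1.67) at 2 days, for Gzma (2.89), Gzmb (2.94) and Nkg7 (1.50) at 5 days and for Ptprc (1.59) at 10 weeks, on the log2 scale. Genotype and library batch cannot be told apart at these times.

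The pair of Mgmt-/- saline libraries left out at 5 days held the kidney transcript Kap at 6147 (D389011) and 7562 (D389017) normalized counts.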

How the results depend on the processing

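No paired analysis was possible because each library has a replicate name of its own and no name is shared between groups. Counts of T and NK cell genes called higher moved by more than 1.5 times as follows, with the share of all tested genes called higher in brackets; the cause was not tested. WT at 1 day, with 5 genes (4.99%), had 2 with a pseudocount of 5 (2.95%), 1 with a mean of at least 20, which tests fewer genes (4.81%), 0 in batch 200803Eng alone (0%) and 3 in batch 210901Eng alone (5.54%), and in batch 200803Eng Gzma (-0.25) and Nkg7 (-0.53) reversed. WT at 2 days, with 3 (2.54%), had 0 in batch 200724Eng alone (0%). WT at 5 days, with 4 (1.70%), had 2 with a mean of at least 20 (4.54%), 0 with total reads as a term (0.319%) and 0 in batch 200724Eng alone (0%). Mgmt-/- at 1 day, with 4 (8.83%), had 7 after scaling to equal totals (15.1%), 9 in batch 191212Eng alone (9.08%), 0 in batch 200803Eng alone (2.31%) and 8 without saline replicate D209090 (9.70%). Mgmt-/- at 10 weeks, with 2 (7.59%), had 4 after that scaling (11.8%). Mgmt-/- at 10 months, with 3 (4.90%), had 1 with a pseudocount of 5 (4.21%), 1 with total reads as a term (3.84%) and 1 with edgeR (4.99%). The genotype by treatment term at 10 weeks, with 1 gene (2.80% of all genes with a larger response in Mgmt-/- livers), had 0 without a batch term (2.55%). The summed log2 difference without Ptprc and Ccl5 from 1 day to 10 months was 0.70, 1.27, 1.49, -0.12 and 0.19 against 0.41, 0.90, 1.53, 0.01 and 0.24 in WT and 1.36, 2.58, 3.10, 1.22 and 1.07 against 1.00, 2.23, 2.79, 1.28 and 1.03 in Mgmt-/- livers. Scaling to equal totals moved the median log2 fold change of all genes in Mgmt-/- livers from 0.02 to 0.20 at 1 day, from 0.04 to 0.20 at 2 days, from 0.04 to 0.18 at 5 days and from 0.07 to 0.26 at 10 weeks. The share of higher calls among all calls went from 52.6%, 63.9%, 64.8% and 69.3% to 75.9%, 80.9%, 79.0% and 88.2% at these times, and in WT from 55.4% and 52.7% to 66.2% and 66.5% at 1 and 2 days.

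Leaving out 1 library at a time gave 9 to 9 genes in Mgmt-/- at 2 and 5 days and 2 to 3 at 10 weeks. In WT it gave 3 to 4 at 2 days, 2 to 5 at 5 days and 0 to 0 at 10 weeks. In Mgmt-/- at 1 day, where 2 libraries were left out in turn, it gave 4 to 8. The share of all tested genes called higher moved as well. In Mgmt-/- it ran from 7.90% to 9.70% at 1 day and from 10.9% to 12.4% at 2 days. It ran from 9.90% to 10.95% at 5 days and from 6.07% to 9.29% at 10 weeks. In WT it ran from 1.88% to 4.41% at 2 days, from 0.719% to 4.52% at 5 days and from 0% to 0.0295% at 10 weeks. Of the values of single genes under all alternatives, 1583 kept direction and side of the threshold, 62 lost the call, 45 gained it and 2 reversed. The batch splits of WT livers at 2 days, 5 days and 10 weeks, the libraries left out at 1 day, also against 10 months, and the batch by treatment term were chosen after seeing the data. Depth limits low genes: a single read was worth 10.5 normalized counts in the shallowest library.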

Other observations

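In the pair of Mgmt-/- saline libraries rich in kidney transcripts, Cd8a stood at 2.46 and 5.99 normalized counts, against 0 to 0.471 in the 6 other saline livers of that age, while Ccl5 stood at 0.704 and 0.545 and Gzmb at 0 in both. With these libraries included, the log2 fold change at 5 days was 2.07 for Cd8a and 3.87 for Ccl5, against 2.62 and 2.69 without them.

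Outside the members, neutrophil genes in Mgmt-/- livers went from 5, 5 and 6 of 7 tested called lower at 1, 2 and 5 days, beside 7.97%, 6.72% and 5.85% of all tested genes, to 2 of 6 called higher at 10 weeks, beside 7.59%, and none of 6 called at 10 months.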
